A study of Zea mays with 12 samples.

Results

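The genes described here are the 7 maize genes whose deposited description names an ABC transporter, an ATP-binding cassette protein or a multidrug resistance protein. They were found by words alone among 29723 features with a maize gene identifier, within 194388 features in all. The words ABC transporter gave 4 genes, ATP-binding cassette gave 1, multidrug resistance gave 2 and pleiotropic drug resistance gave 0. The words use no measured value, but they were chosen with earlier results of these data known. The family is covered in part only, because 7032 maize genes had no description and 14412 were described as uncharacterized and nothing more.

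ABC transporters are membrane proteins that use ATP to move molecules across a membrane. In plants they load the vacuole with pigments, phytic acid and glutathione conjugates, export waxes and defence compounds to the cell surface, and carry hormones such as auxin and abscisic acid. Some ABC proteins have no membrane part and work as soluble ATPases. In the maize stem the best known member is the auxin pump PGP1, whose loss gives the short lower internodes of brachytic2 plants.

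The measurements came from stems of the maize inbred line PB130, grown in pots in a greenhouse and collected 15 days after treatment began, with 3 libraries in each of 4 groups. Larva plants carried larvae of Sesamia nonagrioides, the Mediterranean corn borer. Regurgitate plants had scalpel scratches on the leaf sheath that received caterpillar regurgitate in phosphate buffer and were sealed with parafilm. Both the wounding and the application were repeated every other day. Wounding plants had the same scratches and seal, repeated alike, with buffer alone, and control plants were left untreated. The wound, the buffer and the seal cannot be told apart in the comparison of wounding with control. Each library came from an undamaged piece of the internode below the ear, with the sheath removed. The methods give 3 plants per treatment, treated at silking, and the labels give 15 plants per genotype, treated at the VT stage. Whether a library stands for 1 plant or for several is therefore not settled, and an SD is that between libraries. The 2 comparisons the study set up were larva with control and regurgitate with wounding, and wounding with control and regurgitate with control were added here. These comparisons share libraries and are not independent of each other.

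Massive analysis of 3′-cDNA ends (MACE) reads a single fragment per transcript, near its 3′ end. A long transcript gains no more counts than a short one. Levels can be set side by side between genes only so far as the reads of each gene were counted on its own feature. Levels are given as CPM, the usual scaling of counts to a common total, here the total on maize genes after TMM scaling, a correction for differences in RNA composition. Libraries held 5651382 to 10056972 counts, of which 3047770 to 8390616 fell on maize genes. Contigs assembled from reads that were not placed on the maize genome or its transcriptome took 1.03% to 48.0% of the counts in regurgitate libraries and 17.4% to 34.4% in wounding libraries, against 2.65% to 7.53% in larva libraries and 2.34% to 4.12% in control libraries. Regurgitate replicate 3 stood apart in that it had the share of 1.03%, and in that 68 maize genes and 34 genome intervals were listed at 0 there while every other library had at least 30 counts. Larva replicates 2 and 3 were closer to each other than any other replicate pair, with a chi-square per degree of freedom of 1.55 against 16.6 to 67.8 for the other 11 pairs, and were kept as separate samples. In these bulk samples, fewer cells of a type and less RNA per cell cannot be told apart. Marker genes of green, dividing, lignifying and vascular or phloem tissue each had counts in at least 1 of the 12 libraries. The same holds for all 29723 maize genes, so this does not tell which tissues were present.

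**Figure D1:**
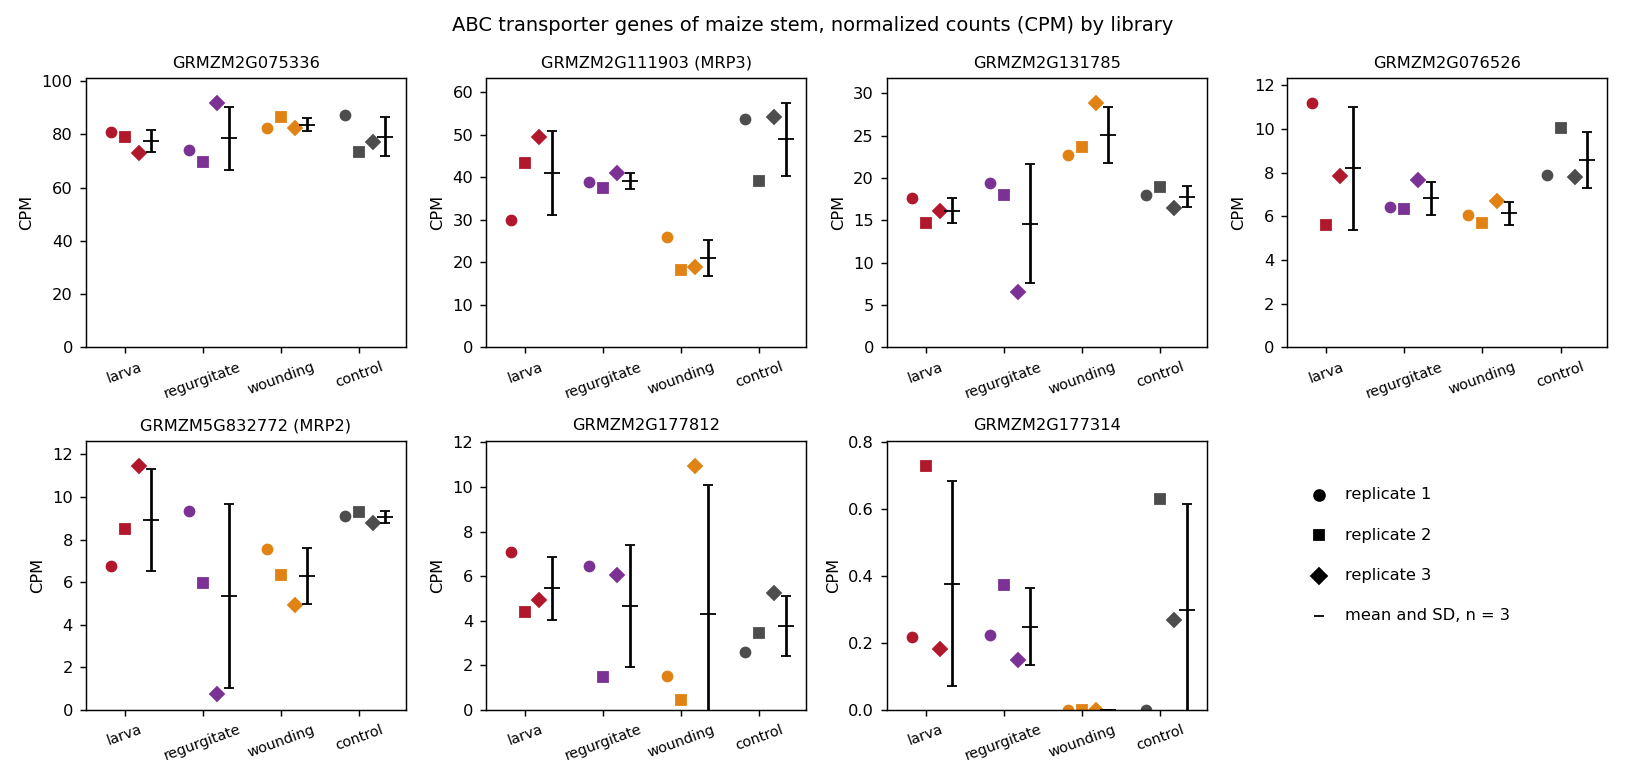
Normalized counts (CPM) of the 7 ABC transporter genes in each library, with 3 replicates and the mean and SD for larva, regurgitate, wounding and control stems (error bars end at 0). MRP3 sits between 18.1 and 25.9 CPM in wounding stems and at 30.02 CPM or above in every other library, while GRMZM2G075336 stays between 69.5 and 91.9 CPM.

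Of the 7 genes, 6 had enough counts to be tested in each comparison, and the vacuolar transporter gene MRP3 was the 1 gene that passed an FDR of 0.05. It was lower in wounding than in control stems. Calls were made by edgeR's quasi-likelihood test on each pair of groups, with the FDR taken over all maize genes tested.

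In wounding with control, 1 of 6 tested members passed and fell, where 38.8% of all tested maize genes passed and 19.3% passed and fell. The members' log2 fold changes ran between -1.23 and 0.48 with a median of -0.21, against a median of -0.01 over all tested genes. At an unadjusted p under 0.05 edgeR had 2 of the 6 (49.1% of all genes), and DESeq2 called 1 of the 6 at an FDR of 0.05 (41.9% of all genes). Wounding and control libraries did not overlap for 4 of the 6, where 55.2% of all tested genes did not overlap. Of these, 3 were lower in wounding (27.6% of all genes) and 1 higher (27.5% of all genes). These shares rest on 6 genes, and whether they differ from those of all genes was not tested.

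In larva with control, 0 of 6 tested members passed, where 0% of all tested genes passed in edgeR. At an unadjusted p under 0.05 the count of members was 0 as well (9.78% of all genes), DESeq2 called 0 (1.39% of all genes), and the groups overlapped for each of the 6 (15.5% of all genes did not overlap). Log2 fold changes ran between -0.28 and 0.52, with a median of -0.06 against -0.01 over all genes.

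In regurgitate with wounding, 0 of 6 members passed in edgeR, where 0.0602% of all tested genes passed. With the replicate block edgeR called 0 members and 0 genes in all. DESeq2 called 1 member, MRP3, where it called 8.94% of all genes, and 1 member had an unadjusted p under 0.05 in edgeR (19.8% of all genes). Groups did not overlap for 2 of the 6, where 26.4% of all genes did not overlap. The median log2 fold change was 0.03 for the members and -0.02 for all genes.

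In regurgitate with control, edgeR called 0 of 6 members (1.28% of all genes), DESeq2 called 0 (8.92% of all genes), and 0 had an unadjusted p under 0.05 (19.4% of all genes). Groups did not overlap for 1 member, lower in regurgitate, where 29.4% of all genes did not overlap and 13.6% were lower without overlap. The median log2 fold change was -0.33 for the members and -0.04 for all genes. Of the 6 tested members 5 had a negative value, none of which passed the test.

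**Figure D2:**
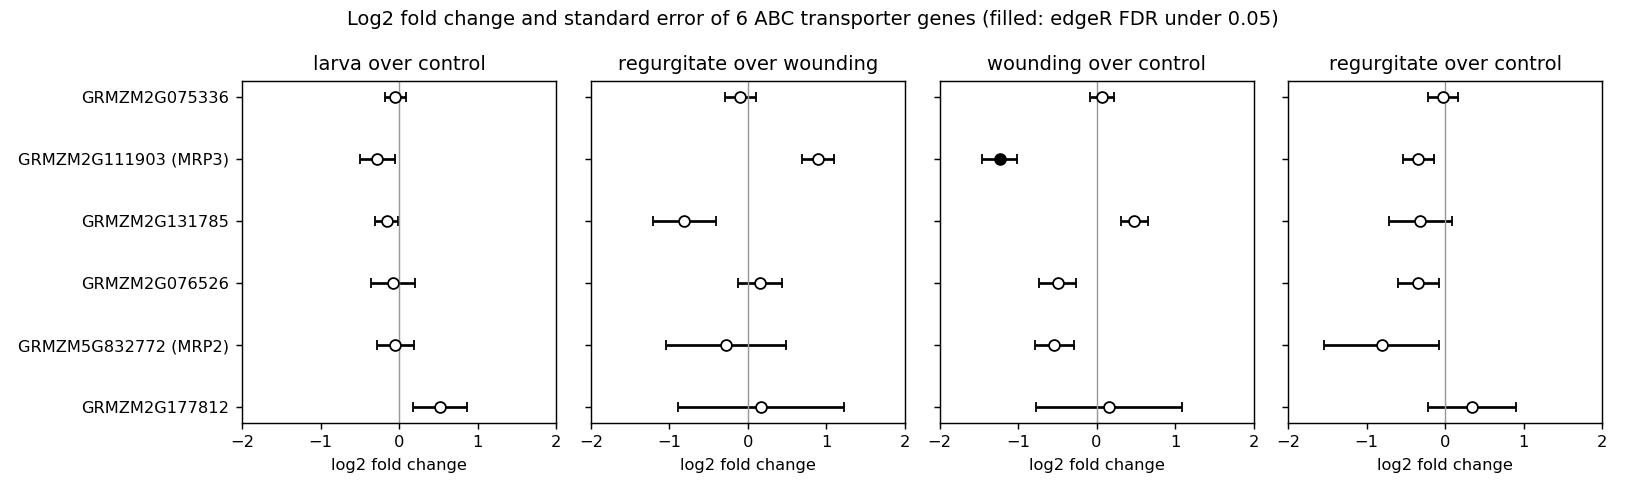
Log2 fold change with its standard error (edgeR, 6 libraries in each comparison) for the 6 tested ABC transporter genes in larva over control, regurgitate over wounding, wounding over control and regurgitate over control. The single filled point, FDR under 0.05, is MRP3 at -1.23 in wounding over control.

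The MRP genes, members of the multidrug resistance-associated protein group, belong to the ABC proteins that plants place mainly in the vacuolar membrane. MRP3 (GRMZM2G111903) is known in maize for the build-up of anthocyanin pigment in the vacuole. It had 30.02, 43.4 and 49.4 CPM in larva stems and 38.9, 37.4 and 41.1 CPM in regurgitate stems. It had 25.9, 18.1 and 18.8 CPM in wounding stems, against 53.7, 39.0 and 54.1 CPM in control stems. The wounding libraries were the 3 lowest of the 12, and overlapped with no other group.

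MRP3 fell in wounding stems to a mean of 20.9 ± 4.28 CPM, against 48.9 ± 8.57 CPM in control stems (SD, n = 3 each). The log2 fold change was -1.23 (SE 0.22, a fold of 0.425), with an FDR of 0.00583 in edgeR and 5.57e-05 in DESeq2. Leaving out each library in turn kept edgeR's FDR between 0.00725 and 0.0246. The libraries differed by group in contig share as well, as given above, and the part of that in the fall of MRP3 was not tested.

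With regurgitate on the wound, MRP3 averaged 39.1 ± 1.86 CPM in regurgitate stems and 20.9 ± 4.28 CPM in wounding stems (SD, n = 3 each). The log2 fold change was 0.90 (SE 0.21), with an FDR of 0.0962 in edgeR and 0.0139 in DESeq2, so the call depended on the tool. One edgeR fit of all 12 libraries gave an FDR of 0.0341, the fit with every deposited feature 0.337, and leaving out each library 0.0648 to 0.298. Within the regurgitate group MRP3 had 37.4 CPM in the library with 48.0% of counts on contigs and 41.1 CPM in replicate 3, with 1.03%, and the part of the contig share was not tested. Regurgitate and control stems were not distinguished by the test (log2 fold change -0.34, SE 0.19, edgeR FDR 0.377), nor were larva and control stems (log2 fold change -0.28, SE 0.23, edgeR FDR 0.781).

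Whether MRP3 responded alike to larvae and to regurgitate was tested as the larva over control change minus the regurgitate over wounding change. That difference was -1.16 on the log2 scale (SE 0.31), with an FDR of 0.0968 in edgeR and 0.0228 in DESeq2. Over all genes edgeR called 1.15% and DESeq2 6.48%, and of the 6 tested members the counts were 0 in edgeR and 1 in DESeq2. MRP3 was also the 1 member with an unadjusted p under 0.05, where 17.0% of all genes had one. With larva replicates 2 and 3 summed as 1 sample the difference was -1.27 (edgeR FDR 0.152).

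MRP2 (GRMZM5G832772), of the same group as MRP3, was expressed at a lower level. It had 6.74, 8.51 and 11.5 CPM in larva stems and 9.34, 5.98 and 0.739 CPM in regurgitate stems. It had 7.55, 6.34 and 4.92 CPM in wounding stems, against 9.13, 9.28 and 8.76 CPM in control stems. All wounding libraries lay below all control libraries, and the low regurgitate value was that of replicate 3, the library that stood apart, with 5 counts.

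For MRP2 the log2 fold change of wounding over control was -0.54 (SE 0.25, edgeR FDR 0.128), which did not pass. That of regurgitate over control was -0.81 (SE 0.73, edgeR FDR 0.565), and it was -0.22 without regurgitate replicate 3. That of regurgitate over wounding was -0.28 (SE 0.76), and it changed sign to 0.32 without the same library. Larva and control differed by -0.05 (SE 0.24). MRP2 and MRP3 thus had the same sign in wounding over control, and the test was passed by MRP3 alone.

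A pair of members carry names from other animals' transporters. GRMZM2G177314 is described as sub-family G member 2, a name that in humans belongs to a drug efflux pump of the plasma membrane. It was close to undetected, with 2, 6 and 1 counts in larva stems, 1 count in each regurgitate library and 0 counts in each wounding library, against 0, 4 and 2 counts in control stems. A count of 0 in a wounding library allows a level of up to 3 counts, or 0.566 to 0.671 CPM. The gene did not pass the filter on low counts in any comparison, and a difference between groups was not detectable at this depth.

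GRMZM2G177812 bears the name of a nematode ABC transporter. It had 7.07, 4.37 and 4.92 CPM in larva stems and 6.45, 1.49 and 6.06 CPM in regurgitate stems. It had 1.51, 0.437 and 11.0 CPM in wounding stems, against 2.59, 3.46 and 5.26 CPM in control stems. Wounding stems held both the lowest value and the highest, and every group overlapped with every other.

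The spread within the wounding group was 4.30 ± 5.79 CPM (SD, n = 3), so the log2 fold change of 0.16 in wounding over control had an SE of 0.93. Without wounding replicate 3 that value was -1.90 (SE 0.65, edgeR FDR 0.0711), and regurgitate over wounding was 2.23 in place of 0.17. The direction of this gene in wounded stems therefore rested on 1 library. In larva over control the log2 fold change was 0.52 (SE 0.34, edgeR FDR 0.71).

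GRMZM2G131785 is described as a putative ABC transporter family protein with no subfamily given. It had 17.6, 14.7 and 16.0 CPM in larva stems and 19.3, 17.9 and 6.50 CPM in regurgitate stems. It had 22.7, 23.6 and 28.9 CPM in wounding stems, against 18.01, 18.9 and 16.4 CPM in control stems. The wounding libraries were the 3 highest of the 12, and the lowest value was again that of regurgitate replicate 3.

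In wounding over control the log2 fold change of GRMZM2G131785 was 0.48 (SE 0.17), with an unadjusted p of 0.027 and an FDR of 0.0641 in edgeR and an FDR of 0.0802 in DESeq2. It did not pass the threshold of 0.05. With scaling over every deposited feature the value was 0.23, where the median of the maize genes was -0.27, so the gene lay above that median in both scalings. In regurgitate over wounding the log2 fold change was -0.81 (SE 0.40, edgeR FDR 0.315), and -0.40 without regurgitate replicate 3, where the libraries still did not overlap. Larva and control differed by -0.16 (SE 0.15, edgeR FDR 0.809).

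The same protein entry that the table gives for GRMZM2G131785 was also given for an interval of the genome outside the annotated genes. The interval had 126, 120 and 76 counts in larva stems and 69, 41 and 0 counts in regurgitate stems. It had 121, 85 and 95 counts in wounding stems, against 112, 87 and 73 counts in control stems. The interval had at least 41 counts in 11 libraries, and was listed at 0 in regurgitate replicate 3 alone.

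With gene and interval summed, an alternative chosen after the values were seen, the log2 fold change of wounding over control was 0.59 (SE 0.16) and passed, with an FDR of 0.0268 in edgeR. The same sum differed by -0.02 (SE 0.13) in larva over control. Reads that matched several places in the genome were kept in the authors' alignment, so counts of members with close copies are uncertain.

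**Figure D3:**
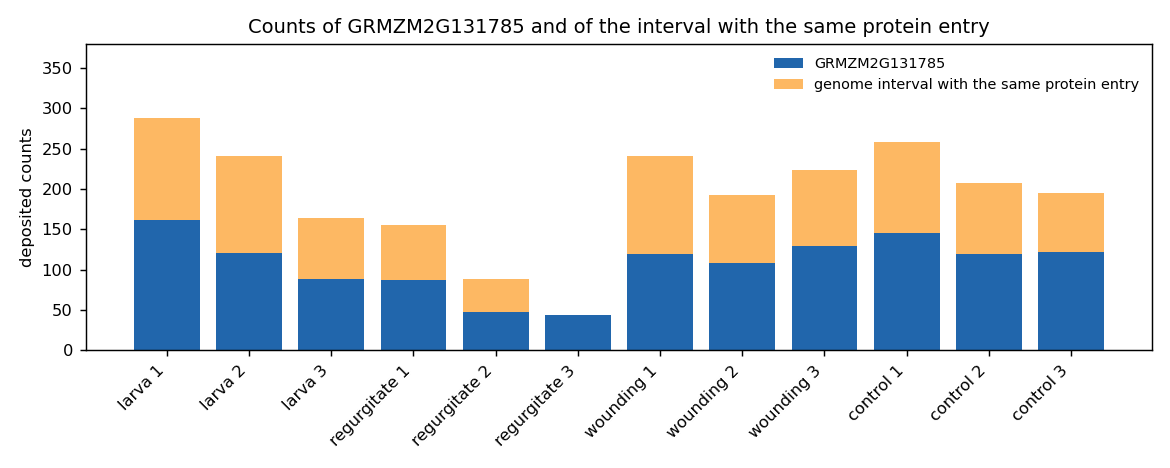
Deposited counts of GRMZM2G131785 (lower bar part) and of the genome interval with the same protein entry (upper part) in the 12 libraries. The interval has 41 to 126 counts in 11 libraries and 0 in regurgitate replicate 3.

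GRMZM2G076526 is described as an ABC transporter-like protein. It had 11.2, 5.59 and 7.83 CPM in larva stems and 6.45, 6.35 and 7.68 CPM in regurgitate stems. It had 6.04, 5.68 and 6.71 CPM in wounding stems, against 7.90, 10.07 and 7.82 CPM in control stems. Both wounding and regurgitate libraries lay below all control libraries, with the highest regurgitate value just under the lowest control value.

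The log2 fold change of GRMZM2G076526 was -0.49 (SE 0.24, edgeR FDR 0.14) in wounding over control and -0.34 (SE 0.26, edgeR FDR 0.49) in regurgitate over control. Neither passed the test. Larva over control was -0.08 (SE 0.28), and regurgitate over wounding was 0.15 (SE 0.28).

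GRMZM2G075336, the member with the highest level, carries the name of a yeast open reading frame, YFL028C, which in budding yeast encodes a soluble ABC protein and not a membrane pump. It had 80.9, 78.9 and 72.9 CPM in larva stems and 74.2, 69.5 and 91.9 CPM in regurgitate stems. It had 82.3, 86.6 and 82.3 CPM in wounding stems, against 87.3, 73.3 and 77.0 CPM in control stems. The groups overlapped, and the highest library was 1.32 times the lowest.

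Log2 fold changes of GRMZM2G075336 ran between -0.10 (regurgitate over wounding, SE 0.20) and 0.07 (wounding over control, SE 0.15), and the edgeR FDR was 0.952 in larva over control and 0.756 in wounding over control. Among the 6 tested members it had the smallest ratio of highest to lowest library, and GRMZM2G177812 had the largest, at 25.1. The RefSeq table joins its identifier with that of GRMZM2G075124, which has a line of its own among the deposited features and another description.

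By mean level over the 12 libraries the order was GRMZM2G075336 at 79.8 CPM, MRP3 at 37.5 CPM, GRMZM2G131785 at 18.4 CPM, GRMZM2G076526 at 7.44 CPM, MRP2 at 7.40 CPM, GRMZM2G177812 at 4.55 CPM and GRMZM2G177314 at 0.231 CPM. The order differed by group, since GRMZM2G131785 was above MRP3 in wounding stems (25.0 and 20.9 CPM in mean) and below it in control stems (17.8 and 48.9 CPM). GRMZM2G076526 and MRP2 were not separated beyond the spread of their libraries. The 7 genes summed to 154 to 163 CPM in larva stems, 139 to 155 CPM in regurgitate stems and 141 to 153 CPM in wounding stems, against 155 to 179 CPM in control stems. The wounding sums lay below the control sums, and the gene with the largest drop within the sum was MRP3.

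A further 8 features are ABC-type by their description or by a RefSeq synonym but hold none of the words used for the members. They were added after their values were seen, and among them are 3 maize genes with names of their own. PGP1 (GRMZM2G315375), the product of the brachytic2 gene, moves auxin out of cells in stalk internodes. It had 103, 118 and 126 CPM in larva stems and 83.1, 35.9 and 91.3 CPM in regurgitate stems. It had 21.1, 8.31 and 19.9 CPM in wounding stems, against 83.6, 109 and 98.0 CPM in control stems. The wounding libraries were the 3 lowest of the 12, and regurgitate replicate 2 lay nearest to them.

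PGP1 fell in wounding over control by 2.57 on the log2 scale (SE 0.35, edgeR FDR 0.00239). Regurgitate over wounding was 2.10 (SE 0.48), with an FDR of 0.0957 in edgeR and 0.00245 in DESeq2. When each library was left out in turn, edgeR's FDR ran between 0.0459 and 0.296, and it passed only without regurgitate replicate 2, the lowest of its group (log2 fold change 2.44). It was 0.0142 in one fit of all 12 libraries, 0.0546 with the replicate block and 0.343 with every deposited feature. Larva over control was 0.24 (SE 0.16, edgeR FDR 0.709), and the larva change minus the regurgitate change was -1.84 (SE 0.52, FDR 0.109 in edgeR and 0.0238 in DESeq2).

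MRP1 (GRMZM2G113203), another gene of the MRP group, ran the other way. It had 31.0, 16.8 and 19.9 CPM in larva stems and 47.8, 85.5 and 30.3 CPM in regurgitate stems. It had 171, 260 and 163 CPM in wounding stems, against 22.1, 3.93 and 7.82 CPM in control stems. The wounding libraries were the 3 highest, above all regurgitate libraries, which in turn lay above all control libraries.

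MRP1 rose in wounding over control by 4.11 on the log2 scale (SE 0.63, a fold of 17.2, edgeR FDR 0.00339). Its size rested in part on control replicate 1, the highest control library, since it was 5.05 without that library and 3.71 without control replicate 2. Regurgitate over wounding was -1.89 (SE 0.42), with an FDR of 0.0904 in edgeR and 0.00121 in DESeq2, and edgeR's FDR ran between 0.0448 (without regurgitate replicate 2, the only such call) and 0.302 when each library was left out. It was 0.056 with the replicate block and 0.327 with every deposited feature. Regurgitate over control was 2.23 (SE 0.67), with an FDR of 0.156 in edgeR and 0.016 in DESeq2. Larva over control was 0.97 (SE 0.57, edgeR FDR 0.665), with 1.91 (edgeR FDR 0.21) without control replicate 1 and 0.57 without control replicate 2. The larva change minus the regurgitate change was 2.86 (SE 0.78, FDR 0.102 in edgeR and 0.0124 in DESeq2). Within regurgitate stems the value was highest and that of PGP1 lowest in replicate 2, the library with the largest contig share, and the part of that share was not tested.

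**Figure D4:**
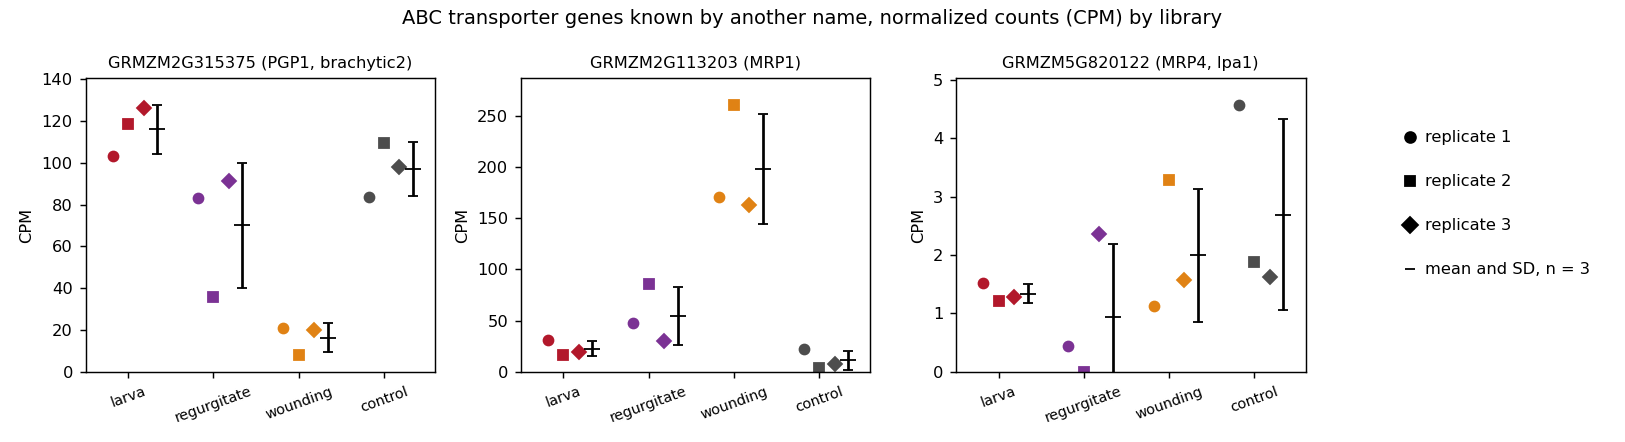
Normalized counts (CPM) of PGP1, MRP1 and MRP4 in each library, with 3 replicates and the mean and SD for larva, regurgitate, wounding and control stems (error bars end at 0). PGP1 is lowest in wounding stems (8.31 to 21.1 CPM) and MRP1 highest there (163 to 260 CPM), with regurgitate stems between wounding and control stems in mean.

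MRP4 (GRMZM5G820122), the low phytic acid 1 gene that serves phytic acid storage in the seed, was near the limit of detection. It had 1.52, 1.22 and 1.28 CPM in larva stems, 0.445, 0 and 2.36 CPM in regurgitate stems and 1.13, 3.28 and 1.57 CPM in wounding stems, against 4.56, 1.89 and 1.62 CPM in control stems. The 0 of regurgitate replicate 2 allows a level of up to 1.12 CPM, the worth of 3 counts there. Larva libraries lay below control libraries without overlap, at a log2 fold change of -1.02 (SE 0.47) that did not pass (edgeR FDR 0.548). Without control replicate 1, the highest library, it was -0.39. The 5 other added features include a periplasmic component of a transport system, GRMZM2G156630, at 38.1 to 59.4 CPM in all 12 libraries. Among these 5 the unadjusted p in edgeR fell under 0.05 once over all comparisons. That was for GRMZM5G889520, described as a cobalt transport permease, in larva over control (log2 fold change 0.86, SE 0.31, edgeR FDR 0.446). In that comparison 9.78% of all tested genes had an unadjusted p under 0.05.

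Counting members and added features together, 14 of 15 were tested in larva with control and 13 of 15 in wounding with control. In wounding with control edgeR called 1 higher (MRP1) and 2 lower (MRP3 and PGP1). The 3 calls among 13 tested features stand beside the 38.8% of all genes called there, and the difference was not tested. In the other comparisons edgeR called 0 of these features. Over all genes it called 0% in larva with control, 0.0602% in regurgitate with wounding, 1.28% in regurgitate with control and 1.15% for the difference of responses. DESeq2 called the same 3 genes among 12 tested in regurgitate with wounding (8.94% of all genes), MRP3 and PGP1 higher and MRP1 lower in regurgitate, so for each of them the regurgitate over wounding change had the opposite sign to the wounding over control change. Both changes were measured against the same wounding libraries.

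Other transporter families were counted by the same kind of words, as a frame for the ABC genes. The counts in wounding over control stand beside the 38.8% of all tested genes that edgeR called there in either direction, or 19.3% for lower genes. Of the auxin carriers it called 1 higher and 4 lower of 6 tested, with 1 higher and 4 lower of 13 peptide and nitrate transporters, and 2 higher and 0 lower of 8 MATE efflux carriers. It called 4 higher and 1 lower of 8 sugar transporters, 3 higher and 1 lower of 7 amino acid transporters, and 2 higher and 0 lower of 15 vacuolar proton pump subunits. The median log2 fold change was -3.18 for the auxin carriers, -1.41 for the peptide and nitrate transporters and 0.00 for the proton pump subunits. It was 0.19 for the MATE carriers, 0.43 for the amino acid transporters and 0.59 for the sugar transporters. The ABC members had a median of -0.21 and all genes one of -0.01. In larva over control, regurgitate over wounding and regurgitate over control edgeR called 0 genes of any of these lists. Over all tested genes it called 0%, 0.0602% and 1.28% there, so calls were rare in any list.

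**Figure D5:**
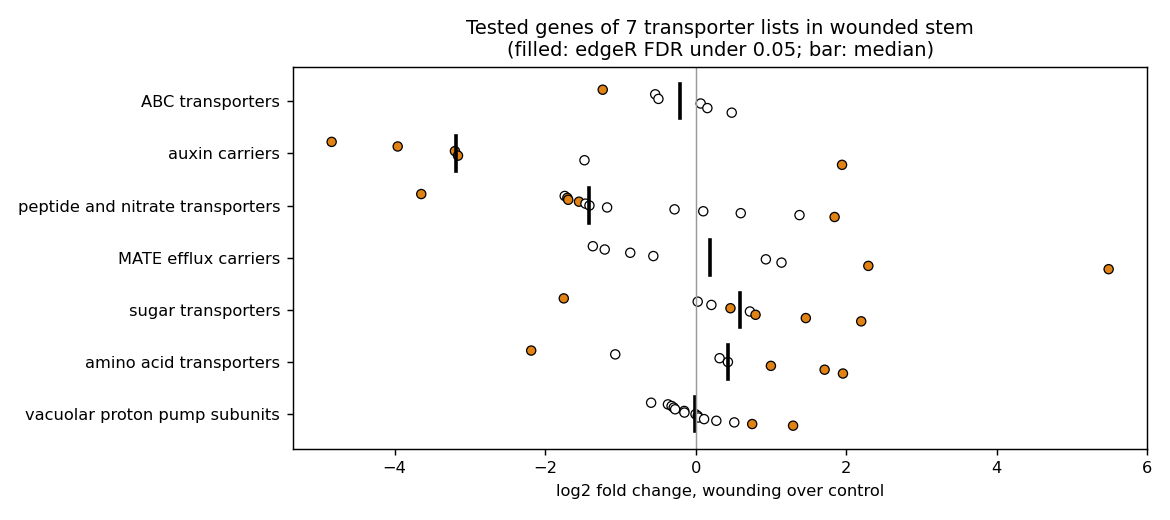
Log2 fold change of wounding over control (edgeR) for each tested gene of 7 transporter lists, with filled points at an FDR under 0.05 and a bar at the median of each list. The median is -0.21 for the 6 ABC transporters and -3.18 for the 6 auxin carriers.

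Markers of tissues were summed to see whether the makeup of the stem samples moved with the treatments. Green tissue genes (41) summed to 9186 to 10031 CPM in larva stems, 5996 to 9626 CPM in regurgitate stems and 6304 to 8547 CPM in wounding stems, against 5958 to 10309 CPM in control stems. In larva over control 26 of the 37 tested were higher, with a median log2 fold change of 0.35 against -0.01 over all genes. Of these 37, 12 were higher and 1 lower without overlap (15.5% of all genes in either direction), and edgeR called 0. In wounding over control edgeR called 2 higher and 5 lower of 37 (38.8% of all genes). Lignifying cell genes (14) summed to 653 to 694 CPM in larva stems, 678 to 784 CPM in regurgitate stems and 814 to 851 CPM in wounding stems, against 788 to 1204 CPM in control stems. Larva and regurgitate stems thus lay below control stems without overlap in this sum, and wounding stems overlapped with control stems. The single genes were split, with 4 higher and 5 lower of 9 tested in larva over control and likewise in regurgitate over control. There edgeR called 0 in larva over control (0% of all genes) and 1, higher, in regurgitate over control (1.28% of all genes). DESeq2 called 2 of the 9, both lower, in larva over control (1.39% of all genes). In regurgitate over control it called 1 higher and 1 lower (8.92% of all genes). In wounding over control edgeR called 2 higher and 3 lower of 9 tested (38.8% of all genes in either direction). Log2 fold changes ran there between -3.71 and 6.86, although the sums overlapped.

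Dividing cell genes (53) summed to 5703 to 11544 CPM in larva stems, 5893 to 8542 CPM in regurgitate stems and 5736 to 9033 CPM in wounding stems, against 4987 to 8651 CPM in control stems. Gene by gene, edgeR called 3 higher and 8 lower of the 48 tested in wounding over control. Over all tested genes it called 38.8% in either direction and 19.3% lower. The median log2 fold change of the dividing cell genes was -0.49 against -0.01 over all genes, although the sums overlapped. Vascular and phloem genes (4) summed to 22.2 to 30.6 CPM in larva stems, 26.1 to 32.5 CPM in regurgitate stems and 31.9 to 87.2 CPM in wounding stems, against 25.6 to 32.8 CPM in control stems. Only 2 of the 4 were tested in wounding over control, with log2 fold changes of 0.21 and 8.50. Of these edgeR called 1, higher (38.8% of all genes in either direction), so the wounding sums do not describe the list as a whole. The part of these tissue markers in the changes of MRP3, PGP1 and MRP1 was not tested.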

How the data were processed

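The authors removed duplicate MACE reads by barcode, trimmed the rest with Cutadapt, aligned them with Novoalign 3.00.05 to the Ensembl maize genome and its transcriptome, assembled the reads left over and matched the contigs to known proteins. They deposited counts, the reads per feature in each of 12 libraries, without normalization. Their normalized group means, fold changes, p-values and FDRs of 2 DESeq comparisons were not used. All columns of counts were mapped by name.

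Features with a maize identifier were tested. The line for reads without a hit (0.107% to 0.289% of counts) was left out. Low counts were removed by filterByExpr of edgeR 4.0.16 (with limma 3.58.1 in R 4.3.3; count of at least 10, total of at least 15). The rest were scaled by TMM and tested by the quasi-likelihood F test on the 6 libraries of each pair, with Benjamini-Hochberg adjustment over all genes and a threshold of 0.05. The difference of responses was fitted on 12 libraries. SE is the log2 fold change divided by the square root of F. Alternatives were RLE size factors, DESeq2 1.42.0, no filter, a replicate block, one fit of 12 libraries, every feature, larva replicates 2 and 3 summed, and leaving out each library. The wider member rule and the sum of gene and interval were added after seeing the data.

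The members and lists were chosen with earlier results of these data known. Named are members with an edgeR p under 0.05 (up to 3 per direction), an FDR under 0.05 in edgeR or DESeq2, a gene name of their own, or a place among the highest levels, which covers all 7. All 7 matched the RefSeq table, which was used for names only, since its assembly differs from that of the files. The main fits did not use the replicate numbers in the labels as pairs, and the replicate block was an alternative in every comparison. Only between regurgitate and wounding did the deviations of all same-numbered libraries correlate positively. They did so at 0.19, 0.35 and 0.20, against -0.28 to 0.13 for other numbers. A pairing there would rest on the data, not on a stated design. The steps were tested on simulated data. Precision was set by the spread between 3 libraries per group, and the limits at a count of 0 cover counting error only.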

Additional observations from a re-analysis of the deposited data

Results flagged for a closer look

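The change of MRP3 (GRMZM2G111903) in larva over control differed from its change in regurgitate over wounding by -1.161 on the log2 scale, with an FDR of 0.0968 in edgeR and 0.0228 in DESeq2. The value was negative without any 1 library, between -1.34 and -0.98.

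Contigs assembled from reads that were not placed on the maize genome or transcriptome, which no comparison of the report used, also carried ABC transporter descriptions. The 64 contigs whose best protein match was fungal stood at 26.5, 6.59 and 4.95 CPM of all counts in larva stems and at 71.4, 127 and 0.298 CPM in regurgitate stems. They reached 114.8, 313.9 and 211.2 CPM in wounding stems, against 5.52, 3.86 and 8.94 CPM in control stems. The lowest value in the regurgitate group was that of replicate 3.

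The 4 contigs matched to maize ABC proteins stood at 2.82, 2.29 and 1.631 CPM in wounding stems, against 0.705, 1.24 and 1.26 CPM in control stems. These rest on 13 to 23 counts per wounding library and 6 to 9 per control library. Groups of 3 libraries are too small for a test of single outlying values.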

How the results depend on the processing

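Of 367 alternative values, 331 kept their direction and their side of the threshold, or stayed close to the value reported, 36 did not, and 0 changed sign past a threshold. In regurgitate with wounding, the count of members called at FDR 0.05 was 1 with DESeq2 and 1 in one fit of all 12 libraries, in place of 0, and the count with an unadjusted p under 0.05 was 2 in that fit and between 1 and 2 when each library was left out. In wounding with control the count with an unadjusted p under 0.05 was 1 in one fit of 12 libraries and between 1 and 3 when each library was left out, in place of 2. In regurgitate with control it was between 0 and 1. For the difference of responses DESeq2 called 1 member in place of 0. The 8 added features, chosen after their values were seen, changed the counts with an unadjusted p under 0.05 in edgeR. These were 1 of 14 tested in larva with control (9.78% of all genes) and 3 of 12 in regurgitate with wounding (19.8%). They were 4 of 13 in wounding with control (49.1%), 1 of 14 in regurgitate with control (19.4%) and 3 of 14 for the difference (17.0%). The FDR count in wounding with control was 3 of 13 (38.8% of all genes). The causes were not tested, except that the wider rule counts more features.

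Scaling over every deposited feature moved the median of the maize genes to 0.16 in regurgitate over wounding, -0.27 in wounding over control and -0.11 for the difference. The fall of MRP3 in wounding over control was then -1.48 (edgeR FDR 0.00378). Over all maize genes, calls in regurgitate with wounding were 11 in edgeR, 1633 in DESeq2 and 1788 in one fit of 12 libraries, and in regurgitate with control 245, 1707 and 1190.

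Apart from regurgitate and wounding, no pair of groups had all same-numbered libraries correlated, and a library was closest to its own number in 8 of 36 cases over all groups. In regurgitate with wounding the replicate block left MRP3 at an FDR of 0.0855 and changed no call of a named gene, and over all genes it gave 0 calls in place of 11. With the replicate block the count of members with an unadjusted p under 0.05 in wounding with control was 1 in place of 2, and MRP3 had an FDR of 0.0134 there. Over all genes the block gave 5404 calls in place of 7438 in that comparison, and 0 in place of 245 in regurgitate with control.

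GRMZM2G177314, with 0 to 6 counts per library, could not be compared at this depth, and the spread between 3 libraries limits the others.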

Other observations

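Of the genome intervals outside annotated genes, 16 carried an ABC transporter description. The interval with most counts was described as B family member 9-like, a group that holds the auxin pumps, and had 184, 212 and 166 counts in larva stems, 106, 90 and 107 counts in regurgitate stems and 217, 173 and 110 counts in wounding stems, against 264, 153 and 279 counts in control stems. An interval described as pleiotropic drug resistance protein 15 had 9 to 29 counts in each library. The 16 intervals together took 37.7 to 54.3 CPM of all counts in larva stems, 21.8 to 35.6 in regurgitate stems and 30.4 to 46.9 in wounding stems, against 45.4 to 57.3 in control stems. All counts include those on contigs, which took 17.4% to 34.4% in wounding libraries and 2.34% to 4.12% in control libraries. A larger contig share lowers these values, so they do not show a fall in wounded stems. Regurgitate replicate 3 had 22.5 CPM with 1.03% on contigs, and the part of that share was not tested.

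Of the 64 fungal contigs with an ABC description, 22 were matched to Colletotrichum, 17 to Sporisorium, 17 to Ustilago and 8 to Gibberella. Those matched to Colletotrichum stood at 47.5, 79.0 and 113 CPM of all counts in wounding stems, against 1.76, 0.772 and 1.82 CPM in control stems. Those matched to Gibberella stood at 51.4, 132 and 35.004 CPM in wounding stems, against 1.998, 1.08 and 1.26 CPM in control stems, and at 16.3 CPM in larva replicate 1. A match names the closest entry in the protein collection searched, and the species in these stems was not tested.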
